A study of Mus musculus with 8 samples.

Results

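SOX proteins are transcription factors that bind DNA through an HMG box, a domain that bends the double helix, and they are sorted into groups by the likeness of that box. The SOXC group (Sox4, Sox11 and Sox12) acts in progenitor cells of many developing tissues. In the mammary gland SOX9, a SOXE protein, is known for its part in luminal progenitors and in stem cell activity. The genes described here are 10 SOX genes, taken by name: Sox4, Sox11 and Sox12 of the SOXC group, Sox9 and Sox10 of SOXE, Sox6 and Sox13 of SOXD, Sox2 of SOXB, and Sox7 and Sox18 of SOXF. They are 10 of the 38293 gene identifiers in the bulk count files, and all 10 were matched to an identifier there.

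RNA came from organoids of mammary tumors from mice carrying the MMTV-PyMT, MMTV-Cre and Ecadherin-mCFP alleles, and every group shared this background. The MMTV promoter drives the PyMT oncogene and Cre in mammary epithelium. SOX4KO lines were made with CRISPR/Cas9. In the bulk experiment 2 control lines (WT1 and WT3) were compared with 3 SOX4KO lines (H7, M4 and H4), with 1 library per line. In the single-cell experiment 1 control line (GR17) was set beside 2 SOX4KO lines (GR18 and GR19), each from a plate of 384 wells. All organoids had been cultured for 4 days after splitting in medium with FGF2, and the ages of the mice are not in the labels. Each line was taken here as 1 replicate of its group, and where 2 lines are not separate cultures the p-values measure a spread that is partly technical. They measure a spread between lines, which is not shown to be one between mice or tumors.

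Reads counted on genes numbered 3050323 to 4678497 per bulk library, and 34.3% to 52.2% of the uniquely aligned reads fell on a gene. The single-cell libraries held 7714119 to 8296953 UMIs (unique molecular identifiers, which count molecules) in 362 to 369 cells. Spike-in RNA took 1.58% of the UMIs in GR18 and 0.793% and 0.771% in GR17 and GR19. GR18 therefore had 62.3 UMIs of mouse genes per spike-in UMI against 125 and 129 in the other libraries. A value per 1000000 UMIs (CPM) and a value per spike-in UMI differ for GR18, and both are given below where the direction differs. The labelled cell type was mammary tumor cells, and the 4 epithelial markers Cdh1, Epcam, Krt8 and Krt18 summed to 1401 to 1658 CPM in the single-cell libraries. Markers of endothelial cells, which use SOXF genes, summed to 2.75 to 5.06 CPM, and Cdh5, Kdr, Tie1, Emcn and Cldn5 had 0 UMIs in all 3. Markers of Schwann cells, which use Sox10, summed to 0.648 to 2.17 CPM. In bulk the Schwann list summed to 117 and 118 CPM in control and 56.4 to 91.5 CPM in SOX4KO lines, nearly all of it Erbb3, a receptor that epithelial cells also use, and Foxd3 was at 0 in every line. Erbb3 had only 3, 5 and 13 UMIs in GR17, GR18 and GR19, so a low single-cell sum is weak evidence that a marker is absent.

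Sequence upstream of 3 genes is shown because the results below turn on them: Sox4 is the targeted gene, Sox12 the other SOXC gene with reads in every library, and Tead2, a TEAD factor of the Hippo pathway, is known as a target of SOXC proteins in other tissues. Each is the 250 bases before the RefSeq start in GRCm38.p6, written 5′ to 3′ on the strand of the gene, in lower case with any match to AACAAT or ACAAAG or AACAAAG in capitals. The letters were searched on both strands, and every AACAAAG also holds an ACAAAG.
Sox4, chr13:28953700-28953949, minus strand: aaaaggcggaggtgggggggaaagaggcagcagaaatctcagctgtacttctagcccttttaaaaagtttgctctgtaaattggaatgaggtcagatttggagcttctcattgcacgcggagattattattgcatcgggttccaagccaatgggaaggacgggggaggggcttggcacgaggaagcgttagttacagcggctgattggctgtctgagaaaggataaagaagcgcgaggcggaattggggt
Sox12, chr2:152398047-152398296, minus strand: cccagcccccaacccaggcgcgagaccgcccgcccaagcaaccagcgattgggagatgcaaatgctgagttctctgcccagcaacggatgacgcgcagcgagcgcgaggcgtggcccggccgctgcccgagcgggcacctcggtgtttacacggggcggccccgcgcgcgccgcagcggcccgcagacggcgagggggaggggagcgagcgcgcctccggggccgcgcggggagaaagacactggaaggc
Tead2, chr7:45215542-45215791, plus strand: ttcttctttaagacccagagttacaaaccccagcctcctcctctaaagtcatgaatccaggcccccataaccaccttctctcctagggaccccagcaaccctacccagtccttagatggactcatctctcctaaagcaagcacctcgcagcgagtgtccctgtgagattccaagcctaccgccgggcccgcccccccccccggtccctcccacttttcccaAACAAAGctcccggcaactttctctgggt
The window of Tead2 held 1 AACAAAG, which began 29 bases before the start, and the windows of Sox4 and Sox12 held no match. Of the 10 SOX genes, 6 had an entry in the promoter table, with 11 windows in all, and 6 of these were of Sox6. Those of Sox11 and Sox13 held no match either, that of Sox2 held 1 ACAAAG beginning 206 bases before the start, and 5 of the 6 windows of Sox6 held at least 1 of the letters. Any of the 3 was in 24.0% of all 32851 windows, and AACAAAG was in 5.03%. Among genes tested in bulk, ACAAAG was in 11.8% of 11444 windows. It was in 17.8% of the 241 windows of genes called lower in SOX4KO and in 11.8% of the 476 of genes called higher. AACAAT was in 5.00% of windows of tested genes, in 4.56% of those called lower and in 5.04% of those called higher. For AACAAAG these shares were 3.22%, 4.98% and 2.94%, and for any of the 3 they were 16.0%, 21.6% and 16.0%. These shares are a description of letters, with no test.

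Sox4, the gene targeted in the knockout, was read in every library, SOX4KO included. Its bulk counts were 1140 in WT1 and 1878 in WT3, and 761 in H7, 496 in M4 and 1248 in H4. After TMM scaling WT1 and WT3 stood at 295 and 374 CPM (reads per 1000000), and H7, M4 and H4 at 199, 179 and 299 CPM. H7 and M4 were below both control lines, whereas H4 was level with WT1, so the groups overlapped. In bulk libraries fewer cells that express a gene and less of its RNA per cell cannot be told apart. The log2 fold change of SOX4KO over control was -0.57 (SE 0.25, 95% interval -1.14 to 0.00078, n = 2 and 3), with an adjusted p of 0.277 (edgeR quasi-likelihood test, Benjamini-Hochberg over all genes tested), so Sox4 was not called at the threshold of 0.1. Leaving out H4 gave -0.82 and an adjusted p of 0.081, past that threshold. The study describes SOX4KO lines with a bi-allelic indel, a short insertion or deletion, and the labels do not say which lines these are. The number of reads on a gene does not show whether its sequence carries one. The Sox4 count is therefore no check of the knockout labels. The study itself reports, by western blot, that SOX4 protein was absent from the SOX4KO lines it selected. The 5 lines had the same order by Sox4 CPM as by the share of uniquely aligned reads counted on genes, which was 52.2% in WT3, 49.5% in H4, 45.1% in WT1, 42.7% in H7 and 34.3% in M4, and the part of this share in the result was not tested.

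Among single cells Sox4 gave 912 UMIs in GR17, 661 in GR18 and 916 in GR19. The levels were 118 CPM (95% Poisson interval 111 to 126) in the control line, 82.5 CPM (76.4 to 89.1) for GR18, and GR19 reached 110 CPM (103 to 118). GR18 was at 0.698 of the control level (0.631 to 0.772), and GR19 was at 0.934 (0.851 to 1.02), an interval that holds 1. These intervals cover counting error only, and with 1 control library no test of the groups was run. Per spike-in UMI the ratios were 0.348 for GR18 and 0.961 for GR19. At least 1 UMI of Sox4 was seen in 80.2% of cells in GR17 (95% Clopper-Pearson interval 75.8 to 84.2), 70.2% for GR18 (65.2 to 74.8) and, for GR19, 75.7% (70.9 to 80.0). With each cell thinned to 5000 UMIs the shares were 41.0%, 33.4% and 45.3%. GR18 was lowest by each of these measures, and GR17 and GR19 changed order with thinning.

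Sox9 was the most abundant SOX gene in every library of both assays. Its bulk counts were 2691 and 3185 for WT1 and WT3 and 2617, 1707 and 3000 for H7, M4 and H4. The normalized levels were 697 and 634 CPM in control and 683, 614 and 718 CPM in SOX4KO lines, so the groups overlapped. The log2 fold change was 0.01 (SE 0.18, 95% interval -0.40 to 0.43, adjusted p = 0.979, edgeR), an interval that leaves room for a change of up to about that size either way. Per length of exon (RPKM) Sox9 stood at 168 and 153 in control and 165, 149 and 174 in SOX4KO lines. On that scale Sox9 was 1.97 to 2.74 times as high as Sox4 in control lines, against 2.79 to 3.99 times in SOX4KO lines. It was above 98.6% or more of the genes tested, by CPM, in each line.

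**Figure D1:**
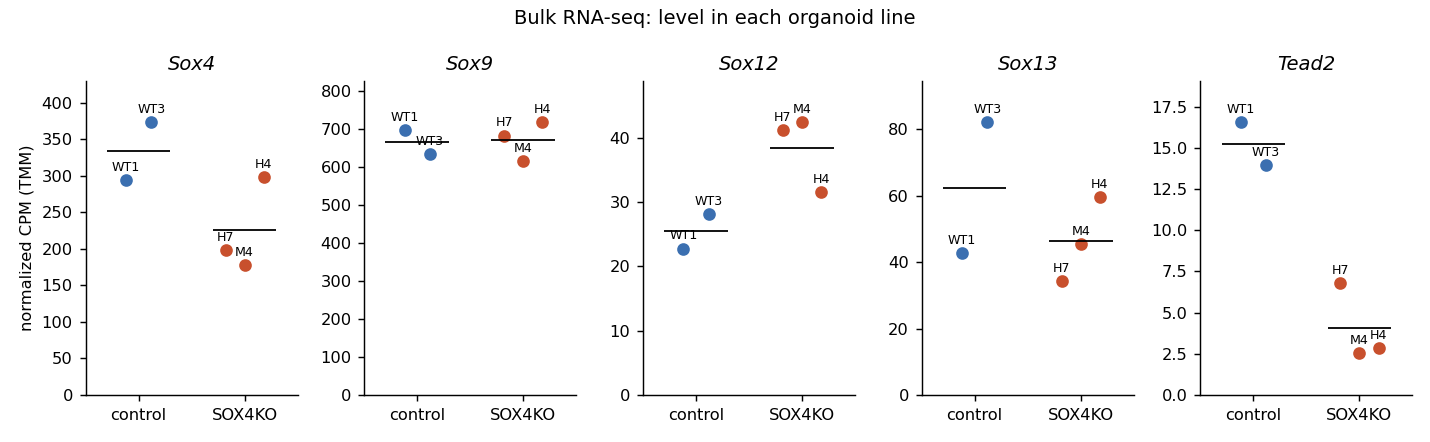
Normalized CPM of Sox4, Sox9, Sox12, Sox13 and Tead2 in each bulk line, with control lines in blue, SOX4KO lines in red and the group mean as a bar. Sox4 of H4 (299 CPM) sits beside WT1 (295 CPM). Sox12 and Tead2 do not overlap between the groups, as was so for 36.9% of all genes tested, and only Tead2 passed the test.

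In the cells Sox9 was seen in 99.5% of GR17, 100% of GR18 and 99.4% of GR19. The summed UMIs were 6634 in GR17, 10080 in GR18 and 9220 in GR19. The levels were 860 CPM (839 to 881) in the control line, 1259 CPM (1234 to 1283) for GR18, and GR19 reached 1111 CPM (1089 to 1134). By CPM GR18 was 1.46 times (1.42 to 1.51) and GR19 1.29 times (1.25 to 1.33) as high as control, but per spike-in UMI GR18 was at 0.729 of control and GR19 at 1.33 times. The direction for GR18 thus turned with the scaling, while that for GR19 did not. The median cell held 15 UMIs of Sox9 in GR17 and 24 in both SOX4KO lines, against 2, 1 and 2 UMIs of Sox4. Sox9 took 84.0% to 90.3% of the UMIs of all 20 SOX genes looked up, and Sox4 took 11.6%, 5.92% and 8.71% in GR17, GR18 and GR19.

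**Figure D2:**
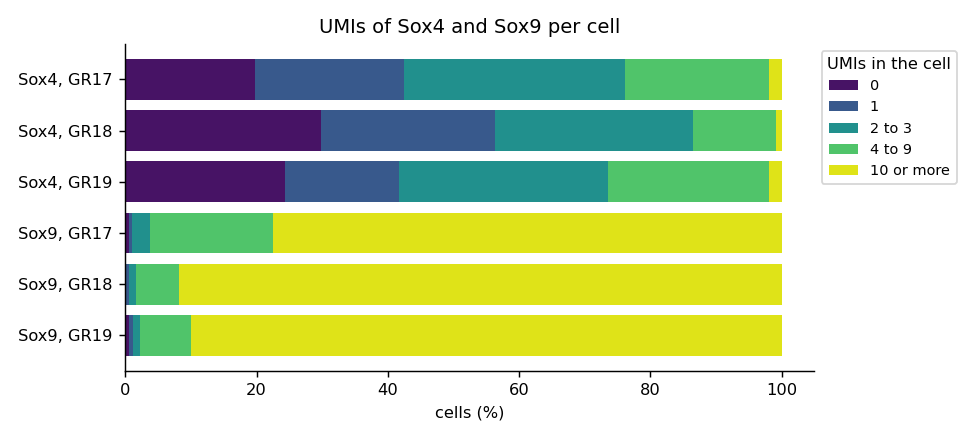
Share of cells (x axis, %) with 0, 1, 2 to 3, 4 to 9 or at least 10 UMIs of Sox4 and Sox9 in the 3 single-cell libraries. Most cells held at least 10 UMIs of Sox9 (286 of 369, 339 of 369 and 326 of 362), and few held as many of Sox4 (7, 3 and 7).

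Sox12, the SOXC gene that is expressed in many tissues at a modest level, was the one member whose bulk groups did not overlap among those tested. Its counts were 88 and 141 for WT1 and WT3 and 158, 118 and 132 for H7, M4 and H4. After scaling these were 22.8 and 28.1 CPM in control and 41.2, 42.5 and 31.6 CPM in SOX4KO lines. The log2 fold change was 0.59 (SE 0.22, 95% interval 0.09 to 1.09), but the adjusted p was 0.207 (edgeR) and Sox12 was not called. Of all 11682 genes tested, 36.9% had all SOX4KO lines above or all below both control lines, so 1 of 4 members is near that background. The single cells held 61 UMIs in GR17, 69 in GR18 and 55 in GR19, with ratios of 1.09 (0.761 to 1.56) and 0.838 (0.572 to 1.23) to control, both intervals holding 1. Per spike-in UMI the ratio for GR18 turned to 0.543 and that for GR19 was 0.863. Sox12 was seen in 13.8%, 15.7% and 12.7% of cells.

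Sox11, the remaining SOXC gene and known from developing neurons, had 0 reads in all 5 bulk libraries and 0, 0 and 2 UMIs in GR17, GR18 and GR19. Sox4 made up 92.3% and 92.5% of the SOXC level (RPKM summed over the 3 genes) in WT1 and WT3, and 81.7%, 79.6% and 89.8% in H7, M4 and H4. The share was lower in each SOX4KO line. The summed SOXC level itself was 66.7 and 84.3 RPKM in control and 50.7, 46.8 and 69.4 RPKM in SOX4KO lines, and these overlapped.

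Sox13, a SOXD gene without a transactivation domain of its own, was read 165 and 413 times in control and 132, 126 and 249 times in H7, M4 and H4. The levels were 42.7 and 82.2 CPM in control and 34.4, 45.4 and 59.6 CPM in SOX4KO, and the control lines alone spanned most of the range. The log2 fold change was -0.43 (SE 0.32, 95% interval -1.15 to 0.29, adjusted p = 0.542, edgeR). WT3 decided its sign, since without that line the value was 0.12. In single cells Sox13 gave 185, 184 and 132 UMIs in GR17, GR18 and GR19, or 24.0, 23.0 and 15.9 CPM. GR18 was at 0.958 of control (0.777 to 1.18) and GR19 at 0.663 (0.527 to 0.834), and per spike-in UMI the ratios were 0.477 and 0.683. It was seen in 31.4%, 30.6% and 25.4% of cells.

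Sox6, a SOXD gene known from cartilage and red cell development, was near 0 in bulk, with 3 and 5 reads in control and 4, 4 and 13 reads in SOX4KO lines, and did not pass the filter on low counts. The single cells gave 9 UMIs in GR17, 47 in GR18 and 42 in GR19, or 1.17 CPM (0.533 to 2.21), 5.87 CPM (4.31 to 7.80) and 5.06 CPM (3.65 to 6.84). The ratios to control were 5.03 (2.44 to 11.7) and 4.34 (2.08 to 10.1), and per spike-in UMI 2.51 and 4.47. Both SOX4KO libraries thus stood above the control library on both scales, and the CPM intervals did not overlap that of control. Sox6 was seen in 2.17% of cells in GR17 (0.941 to 4.23), 10.8% for GR18 (7.86 to 14.5) and, for GR19, 9.39% (6.59 to 12.9), and in 0.554%, 3.29% and 3.35% of thinned cells. No cell held more than 3 UMIs. These 3 libraries are 3 lines, so the difference is between 1 control line and 2 SOX4KO lines. The mean of Sox6 over the 3 libraries was 4.03 CPM, under the 20 CPM minimum of the single-cell background count given below. No share of all genes therefore stands beside this difference.

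The other SOXD gene, Sox5, which pairs with SOX6 in cartilage and is not among the 10, had 41, 85 and 115 UMIs, with ratios of 2.0 (1.36 to 2.97) for GR18 and 2.61 (1.81 to 3.82) for GR19, but the ratio for GR18 was 0.995 per spike-in UMI and thus no higher than control. In bulk Sox5 was at 30.5 and 26.9 CPM in control and 26.6, 18.4 and 29.2 CPM in SOX4KO, with a log2 fold change of -0.20 (SE 0.24, adjusted p = 0.730, edgeR). The labels do not say whether the same lines were used in both assays, and the assays were not compared by a test.

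The remaining members were at or near 0 and no direction is read from them. Sox2, a pluripotency and neural factor, had 0 reads in bulk and 1 UMI, in GR18. Sox7, an endothelial SOXF gene, had 0 reads in bulk and 1 UMI, in GR17. Sox18, another SOXF gene of blood and lymph vessels, had 0 reads in both control lines and 2, 1 and 4 in H7, M4 and H4, and its 4 UMIs in GR18 all lay in 1 cell of 369. Sox10, the factor of Schwann cells and melanocytes, had 1 read in WT1, 1 in H7 and 0 in the other lines, and 1 UMI, in GR19. With a floor of 3 counts, 0 of 369 cells allows a share of cells with a UMI of up to 0.813%, and 0 of 362 cells allows up to 0.829%. The upper ends of the exact two-sided 95% intervals drawn in the plot of cell shares are 0.995% and 1.01%. Bulk endothelial markers summed to 1.55 and 2.19 CPM in control and 1.92 to 3.24 CPM in SOX4KO, and 5 of the 8 were at 0 in every line.

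**Figure D3:**
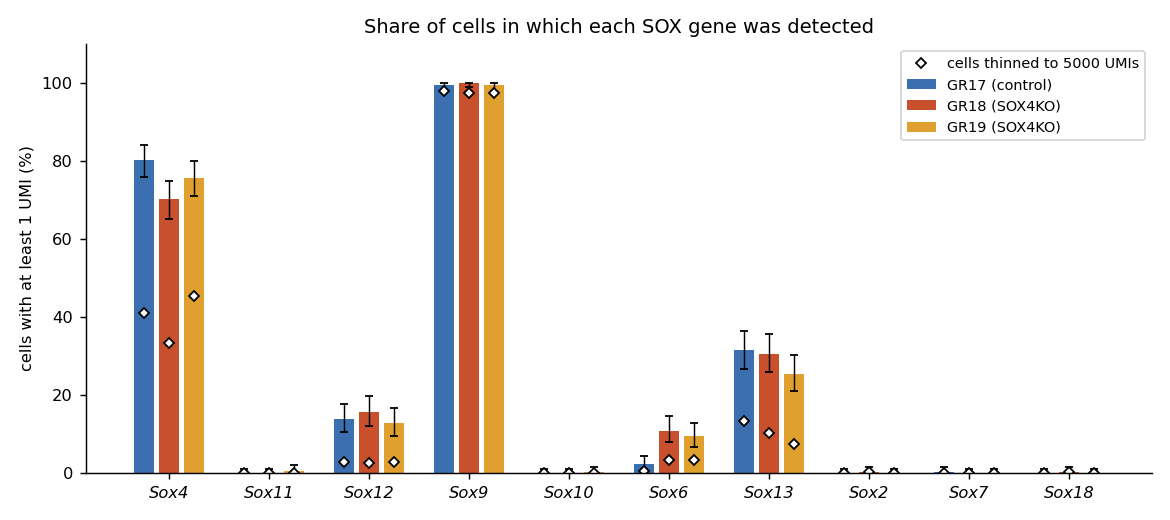
Percentage of cells with at least 1 UMI of each of the 10 SOX genes in the 3 single-cell libraries, as bars with 95% Clopper-Pearson intervals, and after thinning each cell to 5000 UMIs as diamonds. Sox9 is near 100% in every library, Sox4 falls from 80.2% to 41.0% in GR17 with thinning, and Sox2, Sox7, Sox10, Sox11 and Sox18 are at or near 0.

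Of the 10 SOX genes, 4 (Sox4, Sox9, Sox12 and Sox13) passed the filter on low counts in bulk and 0 were called, by edgeR or by DESeq2, although Sox4 was called by edgeR without H4 or without a filter on low counts. Sox12 was the only one of these 4 with an unadjusted p under 0.05, at 0.027. The background was 479 genes called higher (4.10% of the 11682 tested) and 254 called lower (2.17%). Of 10 other SOX genes, 7 had no reads in any bulk line and 2 were tested. Sox8, a SOXE gene, was at 2.85 and 2.79 CPM in control and 7.83, 6.84 and 3.11 CPM in SOX4KO, with a log2 fold change of 1.05 (SE 0.50, adjusted p = 0.323, edgeR), and its single-cell counts were 10, 7 and 8. Sox21, a SOXB gene, was not tested in bulk and had 40, 22 and 20 UMIs in GR17, GR18 and GR19, with ratios of 0.530 (0.30 to 0.913) and 0.465 (0.257 to 0.814). In bulk it had 3 and 4 reads in control and 1, 1 and 10 in SOX4KO. In single cells 3 of the 10 members passed the minimum of 20 CPM, and 0 of these were past 2-fold in both SOX4KO libraries. Among the 6303 genes that passed it, 1.92% were at least 2-fold higher and 0.317% at least 2-fold lower in both.

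Cells were clustered without the SOX genes among the variable genes, so that these did not define the clusters directly, and clusters are named by letters. They were not given cell type names. Cluster A (220 cells) was led by Postn, Pip and Ndrg1, B (209) by Krt17, Tuba1a and Wnt10a, C (158) by Cxcl2, Efr3b and Pglyrp1, D (154) by Serpinf1, Mest and Pi15, E (131) by 1600029D21Rik, S100a8 and Wfdc18, F (120) by Ly6d, Col6a1 and Dapl1, and G (108) by Aspm, Cenpe and Hmmr. Clusters B and F held mostly cells of GR17 (205 and 105), and D and G held none, so that a cluster and a line often cannot be told apart. Levels in clusters are descriptions, with counting intervals.

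Over all libraries Sox9 ran from 806 CPM (781 to 832) in B to 1624 CPM (1584 to 1666) in A. In A it stood at 1706 CPM (1649 to 1765) for GR18, and for GR19 at 1531 CPM (1473 to 1591). In C, the one cluster with at least 20 cells from every library, it was at 876 CPM in GR17, 941 CPM in GR18 and 943 CPM in GR19, values whose intervals overlapped. In E it was at 1342 and 1135 CPM in GR18 and GR19, and in D at 1119 and 1009 CPM. In the control line Sox9 was at 807 CPM in B and 928 CPM in F. The order A, E, D, C thus held in GR18 and in GR19. In A the median basal marker was 1.05 (log2) above the mean of the 7 clusters and the median cycling marker 1.16 below it. In E, next to A by Sox9, the median basal marker was 0.69 below that mean and the median cycling marker 1.17 below it. In B, lowest by Sox9, these were 0.21 and 0.82 above it. The median UMI count of the cells of A was 16036, among clusters of 15230 to 28504.

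Sox4, over all libraries, ran from 82.0 CPM (70.9 to 94.3) in G to 145 CPM (128 to 164) in F. Within the control line F was at 154 CPM (136 to 174) and B at 108 CPM (98.7 to 118), with intervals that did not overlap. Among clusters with at least 20 cells of the library, Sox4 was lowest in C within GR18, at 52.9 CPM (41.6 to 66.4), and highest in C within GR19, at 126 CPM (111 to 141). The interval of C overlapped that of G in GR18 (54.1 to 84.1). In GR19 it overlapped those of A (103 to 137), E (99.4 to 137) and G (79.7 to 116), but not that of D (76.6 to 105). The order of clusters by Sox4 was therefore not shared between the SOX4KO lines. Where cells of C alone are set side by side, GR17 was at 96.6 CPM (78.1 to 118). With fewer, larger clusters the highest value was 115 CPM.

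Sox12 was low in E, with 4 UMIs in 131 cells (1.45 CPM, 0.396 to 3.72). It was highest in D with 13.6 CPM (10.2 to 17.8) and 28.6% of cells. The interval of D overlapped those of F (6.99 to 17.3), A (6.78 to 13.4) and B (5.46 to 10.7). In GR18 E held 1 UMI and D 31, and in GR19 E held 3 and D 22. In E the median luminal marker was 1.16 (log2) above the mean of clusters and the median cycling marker 1.17 below it. Sox13 was highest in A, at 35.5 CPM (29.7 to 42.1), and in F, at 33.3 CPM (25.6 to 42.7), and was between 13.2 and 20.3 CPM in the other clusters. Sox6 was at 3.84 to 9.06 CPM in A, C, D, E and G of the SOX4KO lines and at 0.639 CPM in B and 1.17 CPM in F of the control line, from 3 and 2 UMIs. In the clusters that the lines shared the control cells also held few UMIs, with 2 in C (2.06 CPM, 0.249 to 7.42) and 2 in E (8.17 CPM, 0.989 to 29.5), and these intervals overlapped those of both SOX4KO lines.

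**Figure D4:**
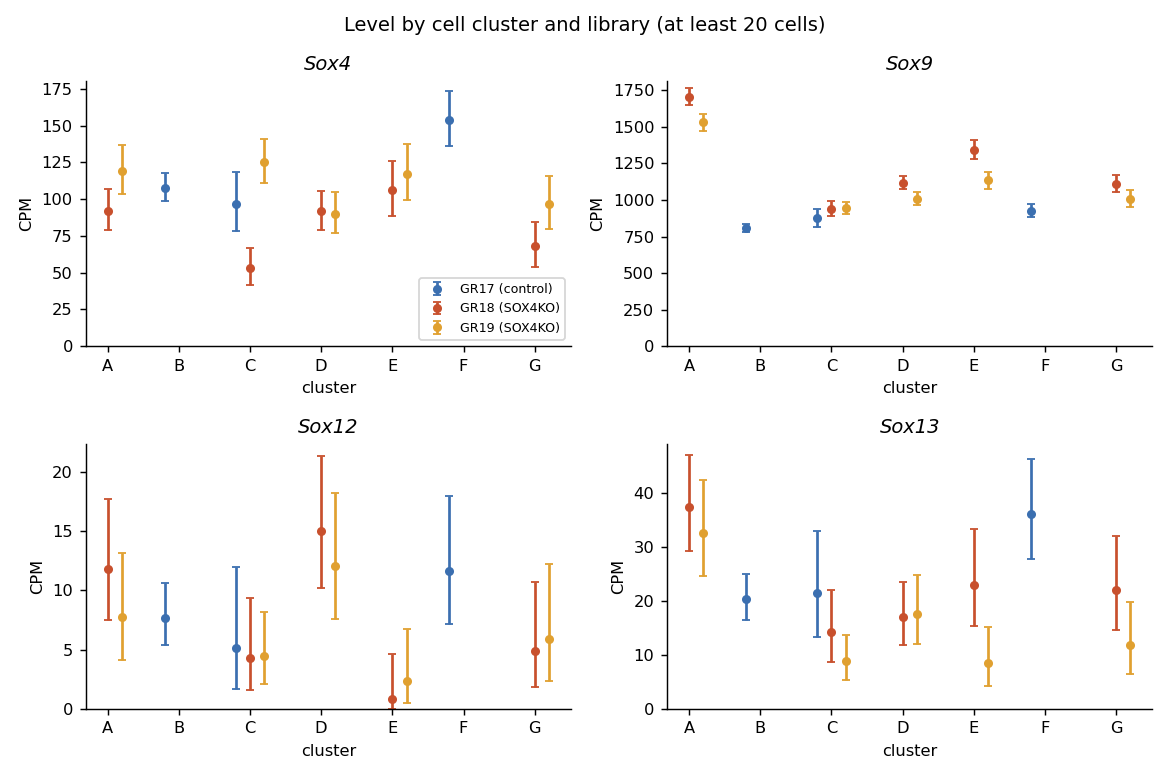
CPM of Sox4, Sox9, Sox12 and Sox13 in clusters A to G (x axis) for each library with at least 20 cells in the cluster, with 95% Poisson intervals. Sox9 is highest in A in both SOX4KO libraries (1706 and 1531 CPM), Sox12 is lowest in E, and Sox4 of cluster C differs between GR18 (52.9 CPM) and GR19 (126 CPM).

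The genes whose level per cell was most like that of Sox4, by the lowest Pearson r of the 3 libraries among 7244 genes, were Zkscan17 (0.15), Actn4 (0.14), Klf13 (0.14), Mtdh (0.14) and Atrx (0.12). Sox9 had r of 0.17, 0.10 and 0.08 with Sox4 in GR17, GR18 and GR19. These r are weak, the points are 362 to 369 cells of 1 library, and cells with a UMI of Sox4 were deeper than the others (median 21323 against 13781 UMIs in GR17), so they are a description only.

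Of 5 genes known as SOXC targets in other systems, 4 were tested in bulk and 1, Tead2, was called lower, against 2.17% of all genes tested. This list was chosen with earlier results of these data known, so counts over it are a description only. Tead2 had 64 and 70 reads in control and 26, 7 and 12 in H7, M4 and H4. The levels were 16.6 and 13.9 CPM in control and 6.78, 2.52 and 2.87 CPM in SOX4KO, and the groups did not overlap. Of the 4 targets tested, 3 had all SOX4KO lines below both control lines. Of all 11682 genes tested, 2091 were apart in that direction, and 36.9% in one or the other direction. The log2 fold change of Tead2 was -1.88 (SE 0.42, adjusted p = 0.057, edgeR). The call was lost when either control line was left out, with adjusted p of 0.295 without WT1 and 0.359 without WT3, at log2 fold changes of -1.75 and -2.0. In single cells Tead2 had 280 UMIs in GR17, 36 in GR18 and 12 in GR19, which is 8.08-fold (5.69 to 11.8) and 25.1-fold (14.1 to 49.2) lower by CPM. It was seen in 45.5%, 9.21% and 3.04% of cells. The mean of the 3 libraries was under the 20 CPM minimum, so Tead2 is not in the single-cell background count above.

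The other targets were not called. Ezh2, a histone methyltransferase, was at 60.3 and 79.9 CPM in control and 48.5, 57.2 and 46.5 CPM in SOX4KO (log2 fold change -0.47, SE 0.20, adjusted p = 0.254, edgeR), and at 0.718 (0.632 to 0.815) and 0.806 (0.714 to 0.911) of control in GR18 and GR19. Edn1, which encodes the vasoactive peptide endothelin 1, had a log2 fold change of -1.33 (SE 0.50, adjusted p = 0.211, edgeR) in bulk, with 7.77 and 8.76 CPM in control and 1.57, 5.76 and 2.87 CPM in SOX4KO, and single-cell ratios of 0.963 (0.594 to 1.56) and 0.905 (0.556 to 1.47). Dicer1, the ribonuclease of miRNA maturation, had a log2 fold change of 0.13 (SE 0.18, adjusted p = 0.775, edgeR). Tubb3, a neuronal tubulin, had at most 1 read or UMI in any library. The median log2 fold change of the 4 tested was -0.90, against 0.0087 over all genes tested. The list was chosen with earlier results of these data known, so this median is a description only. Of the cycling marker list 6 of 10 genes were called lower, against 2.17% of all genes tested. The part of cycling in the level of Tead2 or Ezh2 was not tested.

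The TCF/LEF factors share the HMG box with SOX proteins and act in Wnt signaling. All 4 were tested in bulk and 0 were called. Tcf7 was at 15.3 and 12.9 CPM in control and 27.9, 25.6 and 19.4 CPM in SOX4KO (log2 fold change 0.78, SE 0.25, adjusted p = 0.146, edgeR). The bulk groups of Tcf7 did not overlap, as was so for 36.9% of all genes tested, and it was called without a filter on low counts. In single cells Tcf7 had 90, 40 and 53 UMIs, with ratios of 0.428 (0.287 to 0.628) and 0.548 (0.382 to 0.777), which is the opposite side of control. Tcf7l1, a repressor of Wnt targets, had 325, 217 and 134 UMIs, or ratios of 0.643 (0.539 to 0.766) and 0.383 (0.311 to 0.470), and a bulk log2 fold change of -0.53 (SE 0.39, adjusted p = 0.544, edgeR). Lef1 and Tcf7l2 had bulk log2 fold changes of 0.34 (adjusted p = 0.60, edgeR) and -0.09 (adjusted p = 0.866, edgeR). Tcf7l2 had single-cell ratios of 1.19 (1.05 to 1.35) for GR18 and 1.25 (1.10 to 1.41) for GR19, but per spike-in UMI GR18 turned to 0.593 and GR19 was at 1.28.

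**Figure D5:**
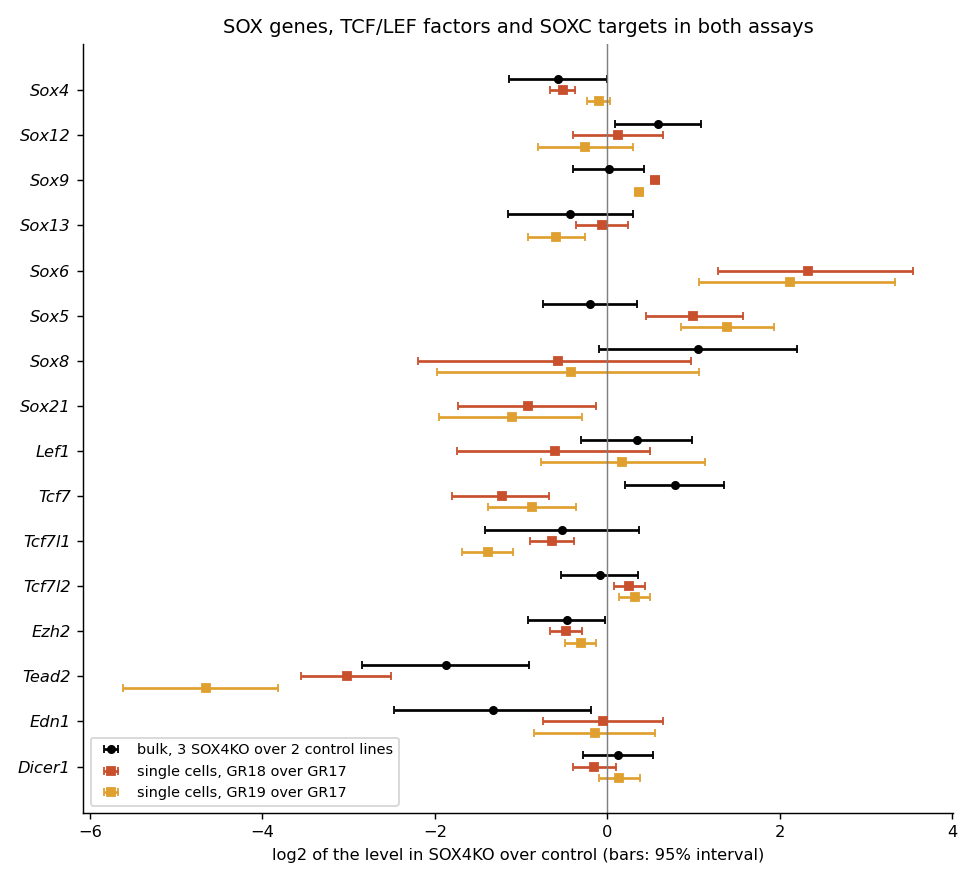
Log2 of the level in SOX4KO over control (x axis) for SOX genes, TCF/LEF factors and SOXC targets, with the bulk fit in black and GR18 and GR19 over GR17 by CPM in red and yellow, bars being 95% intervals (of the fit, or of counting). Tead2 lies below 0 in both assays, Tcf7 lies on opposite sides, and Sox6, Sox5 and Sox9 lie above 0 in the single cells, where per spike-in UMI Sox9 and Sox5 of GR18 turn to -0.46 and -0.0077.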

How the data were processed

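The authors deposited raw read counts per Ensembl gene for each bulk line and UMI counts per gene and well for each single-cell plate, without normalization. The submitters' processing notes name STAR 2.4.2a, HTSeq and the builds NCBIM37 and mm9, without roles. Symbols and merged exon lengths came from GENCODE annotation of GRCm38, so no coordinates of the files' build are given. Of 38293 identifiers 36345 had a symbol.

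Bulk counts were tested with edgeR 4.0.16 in R 4.3.3 (filterByExpr, TMM, glmQLFit, glmQLFTest), with calls at an adjusted p under 0.1, and DESeq2 1.42.0 as an alternative. In data simulated for this comparison, 180 of 200 genes changed 3-fold were recovered among 11682, with 19 false calls. Every simulated gene had the same spread (dispersion 0.0429), so the recovery does not apply to genes that vary more between lines. Rows that name no gene stayed out of library sizes; reads on no gene numbered 4175352 to 5748559.

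A well counted as a cell from 1000 UMIs on, spike-in rows left out. No doublets were called; 8, 20 and 11 cells of GR17, GR18 and GR19 exceeded 2 times the median depth. Clusters used Seurat 5.3.0 (2000 variable genes less 3 SOX genes, 10 principal components, 20 neighbours, resolution 0.5). CPM intervals are exact Poisson, shares exact binomial and ratios exact conditional, all at 95% and for counting error only.

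The members and lists were chosen with earlier results of these data known. Named were the 10 members, the genes of the short lists that were called or counted, and the 5 genes most like Sox4 among those with a UMI in 20% of cells of each library. Sequences are RefSeq promoters of GRCm38.p6. Proteins were not analysed here.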

Additional observations from a re-analysis of the deposited data

How the results depend on the processing

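No paired analysis was possible because the labels pair no control line with a SOX4KO line and the replicate numbers follow only the order of listing. In bulk, without a filter on low counts, 1008 genes were called higher and 678 lower, with 1 TCF/LEF factor (Tcf7) and 2 SOXC targets, and Sox4 was called (log2 fold change -0.58, adjusted p = 0.089, edgeR). At an adjusted p under 0.05, 241 were called higher, 113 lower and 0 targets, Tead2 included at -1.88. Leaving out 1 line gave 30 to 624 genes higher and 26 to 382 lower (93 and 37 without WT1, 30 and 26 without WT3), and 0 to 2 targets. Sox4 ranged from -0.82 (without H4, called) to -0.39, Sox9 from -0.052 to 0.083 with -0.0011 without H7 and -0.035 without H4, Sox13 from -0.82 to 0.12, Tead2 from -2.47 to -1.64 (not called without WT1, -1.75, or WT3, -2.00), and Tcf7l2 from -0.27 to 0.11 (without WT1). The control lines numbered 2, so leaving out either leaves 1 that is assumed to vary like the other group.

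Per spike-in UMI, chosen after seeing the data, the log2 ratios of GR18 were -1.52 for Sox4 and -1.07 for Sox13, and turned from above 0 to -0.46 for Sox9, -0.88 for Sox12, -0.0077 for Sox5 and -0.75 for Tcf7l2. As a mean of cell CPM Sox9 was 0.65 in GR18 and 0.43 in GR19. Thinned to 5000 UMIs, the shares of cells in GR17, GR18 and GR19 were 41.0%, 33.4% and 45.3% for Sox4, 97.5% in both SOX4KO lines for Sox9, 2.77%, 2.47% and 2.79% for Sox12, 13.3%, 10.1% and 7.54% for Sox13, and 0.554%, 3.29% and 3.35% for Sox6. The highest Sox4 level of a cluster was 115 CPM at resolution 0.3 and 121 CPM with 20 principal components. Protein alignment was not run. Counts under about 10 limit what can be said of Sox2, Sox7, Sox10, Sox11 and Sox18.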
